A study of Bos taurus with 12 samples.

Results

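The genes described here encode the proteins of the cytosolic ribosome. They were taken as every gene of the deposited expression table whose symbol is RPL or RPS followed by a number and, at most, one of the letters A, L or X. The rule found 70 rows out of 18436, carrying 69 symbols because RPS29 names 2 of them, with 39 rows for the large subunit and 31 for the small subunit. Of these rows, 69 carried the KEGG term Ribosome in the table, and the exception was the second RPS29 row. Each gene was then looked up by symbol in the m6A peak list of each group, where N6-methyladenosine (m6A) is the methyl mark on internal adenosines of mRNA.

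The study compared proliferating bovine myoblasts (GM) with myotubes (DM). All cells were primary myoblasts from the longissimus dorsi muscle of newborn Qinchuan cattle. GM cells grew in medium with 20% fetal bovine serum to 80% confluence. DM cells spent 4 days in medium with 2% horse serum, and the labels give 100% confluence for them. Each group has 3 input libraries, which measure mRNA, and 3 libraries made with an antibody against m6A (IP), 12 in all. The methods speak of a single newborn animal and do not say that the 3 libraries of a group came from separate animals, so a p-value here measures only the spread between these libraries.

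Every translating cell builds ribosomes from a small subunit, which reads the mRNA, and a large subunit, which joins the amino acids. The mRNAs of nearly all ribosomal proteins begin with a run of pyrimidines (a terminal oligopyrimidine, or TOP, motif) through which mTOR and the binding protein LARP1 regulate their translation and stability together. These mRNAs are short and abundant, and growing cells need much more of their products than cells that have left the cycle. In most mRNAs m6A lies near the stop codon and in the 3′ UTR.

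Ribosomal protein mRNAs were lower in myotubes. Of the 69 genes whose mean reached 0.5 FPKM (fragments per kilobase of exon, scaled to the mapped reads of the library), 61 fell at an adjusted p under 0.05 (limma on log2(FPKM + 1), Benjamini-Hochberg over 12302 genes), against 26.7% of all genes tested, and none rose, against 16.1%. No gene had a higher mean FPKM in DM, although the sign of the smallest difference turned under other scalings, and 0 rose at an unadjusted p under 0.05 with a fold change (FC) over 1.5, against 4.90% of all genes. The median FC corresponded to a level 1.35-fold lower in DM, a log2 FC of -0.43, and the largest fall of a single gene was -0.67. Over all genes tested the median log2 FC was -0.05, and over the other 497 genes that averaged 100 FPKM or more it was -0.19. The highly expressed genes as a class were also called lower more often than all genes, at 54.3% of the 565 with at least 100 FPKM, where 61 of 68 ribosomal protein genes were called.

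Few of the falls were large. With the additional demand of FC over 1.5 at an unadjusted p under 0.05, 9 genes were lower, which is 13.0% of the 69 against 6.97% of all genes and 12.9% of the genes of at least 100 FPKM. This count rests on the scaling, and was 0 on FPKM rescaled to the same sum in every library (TPM) and 2 with median-of-ratios size factors. In 65 of the 69 genes every DM library lay below every GM library, which held for 33.0% of all genes. The reverse order was found in no ribosomal protein gene and in 21.1% of all genes. On TPM the median log2 FC of the ribosomal protein genes was -0.31. There 53 were lower and 0 higher, against 16.6% and 24.3% of all genes tested. That rescaling moved the median of all genes to 0.06 and the share of higher genes among all calls from 37.6% to 59.5%.

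**Figure D1:**
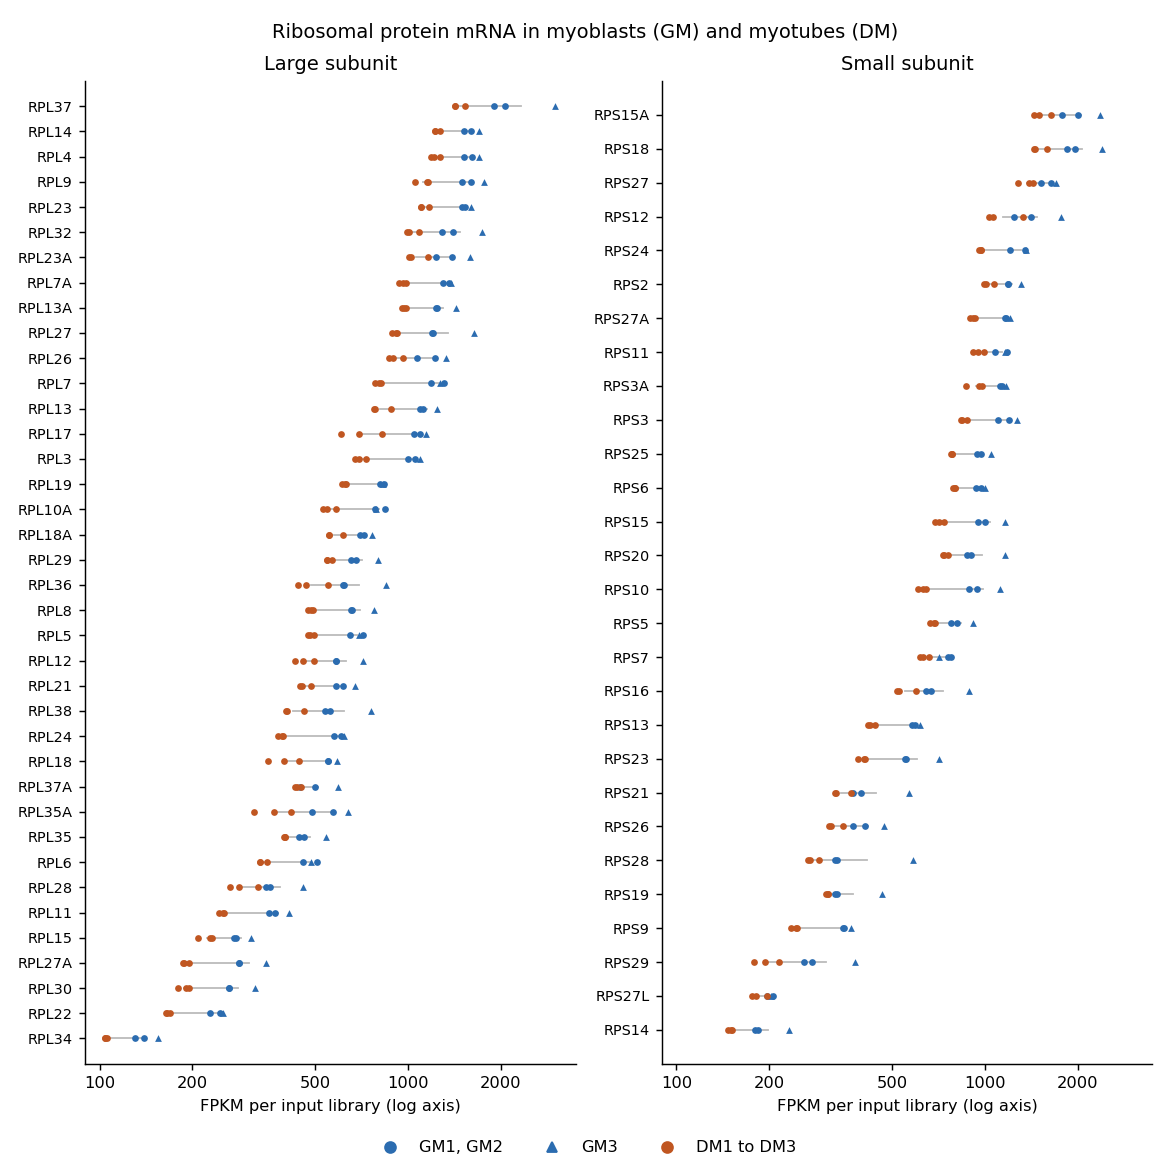
FPKM of ribosomal protein genes that averaged 100 FPKM or more, in each of the 6 input libraries (log axis), with large subunit genes on the left and small subunit genes on the right, ordered by mean. Blue circles are GM1 and GM2, blue triangles GM3, orange circles the 3 DM libraries, and grey lines join the group means. The DM points lie to the left of the GM points in nearly every row.

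In level, these genes were among the most abundant of the culture. They made up 39 of the 100 genes with the highest mean FPKM and 59 of the top 200. Together they held 14.4%, 13.8% and 15.8% of the FPKM summed over the table in GM1, GM2 and GM3. The share was 11.7%, 12.1% and 11.6% in DM1, DM2 and DM3, and the groups did not overlap. In bulk RNA of this kind, fewer cells with a high level and less RNA in each cell cannot be told apart. The ribosome has each protein in about the same copy number, yet the mRNA levels spread 15.4-fold between the lowest and the highest gene of at least 100 FPKM.

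RPL37, a small zinc-binding protein of the large subunit, had the highest mean. It stood at 2061, 1906 and 2993 FPKM in GM and at 1418, 1538 and 1419 FPKM in DM. All GM values were above all DM values, and GM3 stood far above GM1 and GM2. RPS15A followed with 2002, 1782 and 2362 FPKM in GM and 1504, 1641 and 1449 FPKM in DM, and RPS18, which lies at the head of the small subunit, with 1967, 1842 and 2402 FPKM against 1455, 1592 and 1445 FPKM. RPS27 and RPL14 completed the top of the order with means over the 6 libraries of 1497 and 1424 FPKM. Neighbours in this order were not separated, since RPS15A and RPS18 differed by less than the spread between GM libraries of either.

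At the other end of the abundant genes were RPL34 (mean 123 FPKM), RPS14 (174 FPKM) and RPS27L (193 FPKM). RPL3L, the form of RPL3 known from mature striated muscle, was at 0.0276, 0.0221 and 0.0654 FPKM in GM and at 0.0681, 0 and 0.0159 FPKM in DM. It was near 0 in both groups and was not tested. RPL3 itself, which lines the peptidyl transferase centre, went from 1049 ± 47.0 FPKM in GM to 699 ± 28.9 FPKM in DM (mean ± SD, n = 3). The second row named RPS29 stayed between 0.973 and 2.48 FPKM with overlapping groups (adjusted p = 0.23, limma), while the main RPS29 row was at 275, 259.7 and 379.7 FPKM in GM and 179, 215 and 194 FPKM in DM. How the counting divided reads between these copies was not tested.

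The median fall was larger in the large subunit. Of 38 large subunit genes tested, 37 were lower at an adjusted p under 0.05, with a median log2 FC of -0.50. Of 31 small subunit genes, 24 were lower, with a median of -0.36. The order of the subunits was the same on TPM, at -0.38 and -0.24, and without GM3, at -0.42 and -0.27. The difference between the subunits was not tested, since genes are not replicates of a condition.

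RPL27A, a protein of the large subunit, fell most among the genes found by the rule. Its level was 284, 284 and 347 FPKM in GM and 188, 195 and 187 FPKM in DM, without overlap. The log2 FC was -0.67 ± 0.08 (SE; limma, adjusted p = 0.00031). RPL7 was the large subunit gene with the next largest fall, at 1314, 1193 and 1269.9 FPKM in GM and 805, 780.1 and 818 FPKM in DM. The libraries of each group lay close together, and the log2 FC was -0.65 ± 0.06 (limma, adjusted p = 4.9e-05).

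RPS10, a protein of the mRNA entry region of the small subunit, had the largest fall there. It was measured at 944, 892 and 1121 FPKM in GM and at 631, 643 and 607 FPKM in DM. GM3 was again the highest library, and the groups were separate with a log2 FC of -0.65 ± 0.08 (limma, adjusted p = 0.0005). RPL24, a protein at the interface of the subunits, went from 605, 578 and 619 FPKM to 380.4, 393 and 391 FPKM. Its groups were tight and apart, and at an adjusted p of 2.8e-05 (limma, log2 FC -0.63 ± 0.05) it had the smallest p of all these genes.

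RPL11, which besides its place in the large subunit binds MDM2 when ribosome assembly is disturbed, was at 371, 355 and 412 FPKM in GM and at 253, 252 and 244 FPKM in DM, a log2 FC of -0.60. RPL17, which surrounds the exit tunnel, spread more in DM, from 1097, 1049 and 1149.5 FPKM down to 824, 695 and 609 FPKM (log2 FC -0.64). RPL35A, known for mutations in Diamond-Blackfan anaemia, went from 573, 488 and 641 FPKM to 317, 419 and 368 FPKM (log2 FC -0.62). Every DM library of these genes lay below every GM library. With RPL37 (log2 FC -0.64) and the main RPS29 row (-0.62) they complete the genes called at FC over 1.5.

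Small differences that did not pass were found in RPS27L and RPL37A, among others. RPS27L, a p53-responsive relative of RPS27, was at 205, 197 and 203 FPKM in GM and 181, 196 and 176 FPKM in DM (log2 FC -0.13, limma adjusted p = 0.087).

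RPL37A (log2 FC -0.21, adjusted p = 0.11, limma) and RPS12 (-0.36, adjusted p = 0.07, limma) had overlapping groups and did not pass. RPS7 (-0.23, adjusted p = 0.01, limma) and RPS27 (-0.24, adjusted p = 0.018, limma) passed with small falls, but these calls depended on the setting. On TPM neither passed (adjusted p = 0.2 and 0.14, limma), and RPS27 also missed the threshold with size factors (adjusted p = 0.073, limma), with no filter on FPKM (0.067) and without GM1 or DM2 (0.062 each). RPS19, RPS21 and RPS28 had lower values in all DM libraries but did not pass, and in each of them GM3 was far above the other GM libraries. RPS28 shows this most clearly, with 332, 327 and 585 FPKM in GM against 267, 289 and 272 FPKM in DM.

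GM3 stood apart in these genes. It was the highest GM library in 60 of the 69 genes, compared with 35.0% of all genes tested, and its level relative to the mean of GM1 and GM2 had a median of 1.15 here and 0.982 over all genes. The ratio exceeded 1.2 in 25 of the 69 genes and in 9.66% of all genes. The highest ratios were 1.77 for RPS28, 1.51 for RPL37 and 1.47 for RPS21, and RPS7 was at 0.926. The median coefficient of variation between libraries was 8.46% in GM and 3.46% in DM, while for the other genes of at least 100 FPKM it was 5.08% and 3.54%.

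Without GM3, 62 of the 69 genes were lower at an adjusted p under 0.05, against 28.4% of all genes tested. The median log2 FC of the 69 was -0.36. The number with FC over 1.5 fell from 9 to 3, and these were among the 9. That count also moved to 14 without GM1, to 17 without GM2 and to 14 without DM2. RPL37 went from -0.64 to -0.44 without GM3, while RPL7 (-0.64) and RPL24 (-0.61) hardly moved. Why GM3 stood apart was not tested.

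**Figure D2:**
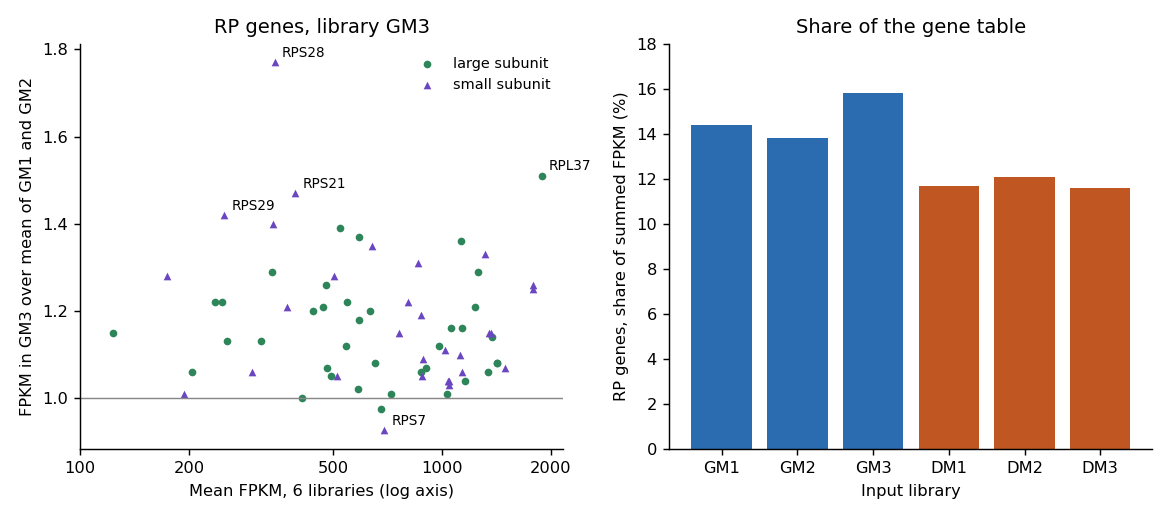
Left, FPKM in GM3 divided by the mean of GM1 and GM2 against the mean FPKM of the 6 libraries (log axis) for the 68 genes of at least 100 FPKM, with circles for the large and triangles for the small subunit. Right, share of the summed FPKM held by the ribosomal protein genes in each input library. Most genes lie above 1 on the left, and on the right GM3 is the highest bar at 15.8% and the DM bars lie between 11.6% and 12.1%.

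Several ribosomal proteins have a paralog, a related gene with a similar product. RPL22L1, the paralog of RPL22, was at 139, 144 and 120.0 FPKM in GM and at 54.6, 56.1 and 60.9 FPKM in DM. All DM libraries were below all GM libraries, with a log2 FC of -1.21 (95% interval -1.39 to -1.04). RPL22 was at 245, 229 and 252 FPKM in GM and 166, 169 and 164 FPKM in DM, a log2 FC of -0.54 (-0.66 to -0.42), so the intervals of the pair did not overlap. RPL7L1 (-0.43) and RPL26L1 (-0.39) fell, as did RPL7 (-0.65) and RPL26 (-0.40), and RPS27L (-0.13, interval -0.25 to -0.01) and RPS27 (-0.24, interval -0.40 to -0.09) had overlapping intervals. No direct test of a difference between paralogs was made.

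Ribosomal proteins whose symbols lie outside the rule were lower in 8 of 12 tested and higher in none (median log2 FC -0.35). Over all genes tested the shares were 26.7% lower and 16.1% higher. The stalk protein RPLP2 fell, from 404 ± 95.7 to 260.5 ± 15.9 FPKM (log2 FC -0.61; limma, adjusted p = 0.0094). Its partners RPLP0 (log2 FC -0.08, adjusted p = 0.39) and RPLP1 (-0.08, adjusted p = 0.6, limma) did not pass, nor did the ubiquitin-like fusion FAU (-0.19). RPLP1 was the most abundant gene of the list at 3020.3, 2916 and 4007 FPKM in GM and 3027, 3150.2 and 3113 FPKM in DM, with DM inside the range of GM.

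A list of further genes with TOP mRNAs, which holds translation factors and some genes of other function, had a median log2 FC of -0.43, equal to that of the ribosomal proteins. Of its 17 genes 13 were lower and 3 higher, against 26.7% and 16.1% of all genes tested. The largest falls were in HNRNPA1 (an RNA-binding protein; log2 FC -0.85), EEF1A1 (the elongation factor that brings tRNA to the ribosome; -0.79) and NAP1L1 (a histone chaperone; -0.69). The row named NAP1L1 spans only chr6:83916857-83918322, and whether it is the gene itself or a copy was not tested. EEF1A1 was at 1889.6, 1759 and 1865 FPKM in GM and at 932, 1014 and 1263 FPKM in DM, without overlap. TPT1, a growth-related TOP mRNA, rose instead, from 2534, 2441 and 2706 FPKM to 3056, 3247 and 3002 FPKM (log2 FC 0.28; limma, adjusted p = 0.009). The other genes that rose were EIF3A and LARP1, each with a log2 FC of 0.15.

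Genes for building ribosomes were called in both directions, each less often than all genes tested (26.7% lower and 16.1% higher). Of 48 ribosome biogenesis genes tested, 10 were lower and 4 higher, with a median log2 FC of -0.03. Both the median and the balance of calls depended on the scaling, with 6 lower and 9 higher on TPM (median 0.09) and 7 lower and 7 higher with median-of-ratios size factors (median 0.03). Over all genes tested the shares were 16.6% lower and 24.3% higher on TPM, and 21.6% and 20.8% with size factors. FBL, the methyltransferase of box C/D snoRNPs, fell from 65.5 ± 5.74 to 43.0 ± 3.90 FPKM (log2 FC -0.60; limma, adjusted p = 0.00069), while UBTF, a factor of RNA polymerase I, rose (log2 FC 0.27; limma, adjusted p = 0.0039). Growth signalling genes gave 4 lower and 4 higher of 18 (median -0.08), shares close to those of all genes, and on TPM 1 lower and 4 higher (median 0.04). On the deposited FPKM, EIF4EBP2, a repressor of cap-dependent translation, fell (-0.43, limma adjusted p = 0.00035). EEF2K (-0.31), EIF4EBP1 (-0.28) and AKT2 (-0.18) also fell, and MTOR (-0.07) and MYC (-0.14) did not pass. RHEB, an activator of mTOR complex 1, rose (0.29, limma adjusted p = 0.0041). So did TSC2 (0.25) and TSC1 (0.16), inhibitors of that complex, and LARP1 (0.15).

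Mitochondrial ribosomal proteins, which serve the separate ribosome of mitochondria, were lower in 41 of 76 and higher in 0, with a median log2 FC of -0.23. Over all genes tested 26.7% were lower and 16.1% higher. On TPM 16 of the mitochondrial genes were lower and 2 higher, with a median of -0.11, against 16.6% and 24.3% of all genes tested. MRPS24 had the largest fall (12.1 ± 1.22 to 6.38 ± 0.534 FPKM; log2 FC -0.82; limma, adjusted p = 0.00013), followed by MRPS15 (-0.60).

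**Figure D3:**
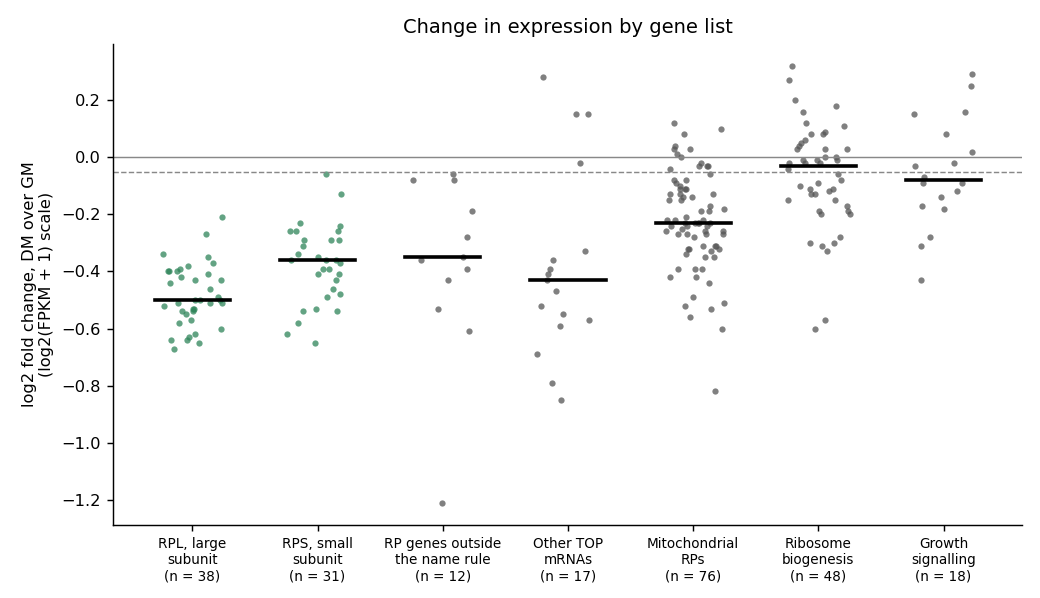
Log2 fold change (DM over GM, on the log2(FPKM + 1) scale) of each gene tested in the ribosomal protein genes and in 5 related lists, 1 point per gene, with black bars for medians, a solid line at 0 and a dashed line at the median of all genes tested (-0.05). The points of both subunits lie below 0, with medians of -0.50 and -0.36, and the ribosome biogenesis genes lie around 0.

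The cultures also differed in other respects that move with these changes. All 8 proliferation genes fell, with a median log2 FC of -2.32, and their summed level went from 125 to 135 FPKM in GM to 22.9 to 26.5 FPKM in DM. Of 15 skeletal muscle genes 10 rose and 3 fell, against 16.1% and 26.7% of all genes tested. The sum of these muscle genes was 1308 to 1419 FPKM in GM and 2073 to 2151 FPKM in DM. Among those that rose, embryonic myosin MYH3 went from 273 ± 2.74 to 659 ± 15.0 FPKM and the muscle creatine kinase CKM from 10.2 ± 1.41 to 42.5 ± 2.55 FPKM. Those that fell were the myogenic regulators MYOD1 (61.6 ± 3.94 to 24.8 ± 1.17 FPKM), MYF5 and PAX7, and PAX7 was near 0 in DM at 0.0417, 0.102 and 0.0439 FPKM. Fibroblast markers were all present, 8 of 8, with sums of 16067 to 16217 FPKM in GM and 16961 to 18070.2 FPKM in DM, and 4 of them rose. Sums of adipocyte, endothelial and leukocyte markers were between 0.331 and 3.16 FPKM in every library, with LEP and ADIPOQ at 0 in some. The part of proliferation or of fibroblasts in the level of ribosomal protein mRNA was not tested.

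A second feature of these genes was how few carried an m6A peak. A peak is a stretch of exon where fragments were enriched in the IP over the input, and the list of each group was called on its pooled libraries, which leaves every peak with a single value and without replicate error. In GM, 21 of the 69 genes had at least 1 peak under their own name (30.4%), compared with 70.9% of all genes tested and 58.1% of genes of at least 100 FPKM. In DM, 30 had one (43.5%), compared with 78.7% and 71.9%. Ribosomal protein genes are short, with a median span of 3752 bases against 15156 over the table. Among genes of at least 100 FPKM that span at most 10000 bases, 48.7% had a GM peak and 63.3% a DM peak, and for ribosomal protein genes of that kind the counts were 17 and 27 of 63.

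Assignment mattered here, because many ribosomal protein genes hold small nucleolar RNAs (snoRNAs, guides of rRNA modification) in their introns. The lists give 1 gene to a peak, and on the strand of 11 ribosomal protein genes they named another gene, an RNA family entry mostly described as a snoRNA, for a peak with exon blocks inside the gene. RPL13A carried such a peak in both lists, with 292 exon bases in 3 blocks and a fold enrichment of 2.51 in GM and 2.21 in DM. So did RPL23 (1.70 and 2.08, 5 blocks) and RPS13 (2.79 and 2.29). Matched by position on the same strand instead of by name, a match chosen after the lists had been seen, 27 genes had a GM peak (39.1%, against 71.5% of all genes tested) and 39 a DM peak (56.5%, against 79.4%). The share stayed below that of genes of at least 100 FPKM, which was 59.5% and 74.3% by position. That class includes most of the ribosomal protein genes themselves, and a comparison by position limited to short genes is not given here.

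**Figure D4:**
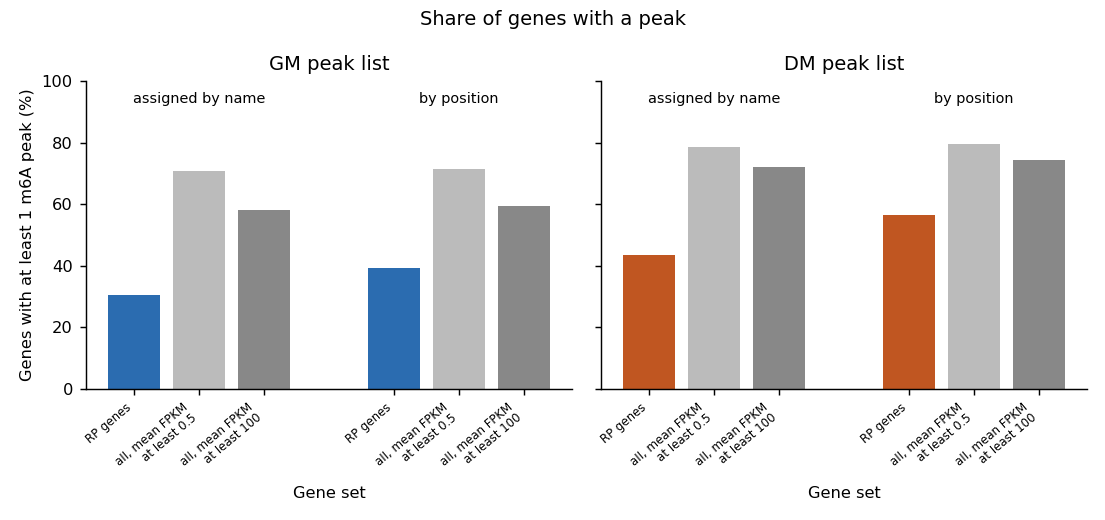
Share of genes with at least 1 m6A peak in the GM list (left) and the DM list (right), for the 69 ribosomal protein genes (coloured bars), all 12302 genes tested (light grey) and the 565 genes of at least 100 FPKM (dark grey), with peaks assigned by gene name or by position on the same strand. The coloured bar is the lowest of its group each time, from 30.4% in GM by name to 56.5% in DM by position.

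By name, 18 genes had a peak in both lists, 12 in the DM list alone, 3 in the GM list alone and 36 of the 69 in neither. For all genes tested these shares were 68.6% in both, 10.1% in DM alone, 2.32% in GM alone and 19.0% in neither. By position the counts were 25 (69.5% of all genes tested), 14 (9.93%), 2 (2.05%) and 28 (18.6%). The large subunit had 13 genes with a GM peak and 20 with a DM peak out of 39, and the small subunit 8 and 10 out of 31. The median log2 FC in expression was -0.51 over the 18 genes with a peak by name in both lists. It was -0.41 over the 12 with one in the DM list alone. Differences between these groups of genes were not tested. The median was -0.41 over the 33 genes with a peak by name in either list and -0.45 over the 36 without. Some of these 36, such as RPL13A and RPL23, had a peak by position, where only 28 had none.

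Where peaks were called, they were mostly annotated to the 3′ UTR and of modest enrichment. Of 22 GM peaks 17 were annotated to the 3′ UTR (77.3%, against 42.6% of all GM peaks), and of 36 DM peaks 26 (72.2%, against 45.3%). The annotation is 1 label per peak, and several peaks with the 3′ UTR label extend over more than 1 block of exon. The RPL11 peak in DM has 447 exon bases in 5 blocks, and the RPL4 peak in GM has 443 in 3. The share of peak bases that lie within 3′ UTRs was not measured. The median fold enrichment was 2.32 in GM and 1.89 in DM, lower than the 3.27 and 3.38 of all peaks and than the 2.54 and 2.41 of the peaks of other genes of at least 100 FPKM. A fold enrichment of at least 2 was reached by the peaks of 13 genes in GM and 17 in DM. Counted by peak, this was 63.6% in GM and 47.2% in DM, against 78.3% and 76.3% of all peaks.

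Shared peaks had close values in both lists. In 17 cases exactly 1 GM peak and 1 DM peak overlapped by at least 1 base of exon on the same strand, at a median fold enrichment of 2.32 in GM and 2.37 in DM. The DM value was higher in 12 and lower in 5, and over all 10239 such pairs it was higher in 5789 and lower in 4394. A change over 1.5 times was found upwards in 2 of the 17 (14.2% of all pairs) and downwards in 0 (10.8%).

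Among these 17 pairs, RPL22 had the highest value in both lists. In GM it covered chr16:47151771-47152099 (ARS-UCD1.2), in the 3′ UTR, at a fold enrichment of 3.92. The overlapping DM peak reached 4.94 with 957 exon bases in 4 blocks, so the peaks differ in extent. RPL24 followed with 3.45 in GM and 3.77 in DM, both annotated to its 3′ UTR. Next were RPS24 with 3.44 and 3.58, and RPS6, the substrate of S6 kinase, with 3.34 and 4.08. All ratios of these pairs were under 1.5.

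The pairs that changed over 1.5 times were RPL11 and RPS12. RPL11 went from 1.31 over 269 exon bases in GM to 2.13 over 447 in DM. RPS12 went from 2.39 over 61 bases in GM to 3.85 over 503 bases in DM, where the list names the peak for the snoRNA entry RF00186. Both DM peaks were much wider than their GM partners, so the values do not describe the same bases. RPS26 was just under the limit, at 1.41 and 2.11.

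**Figure D5:**
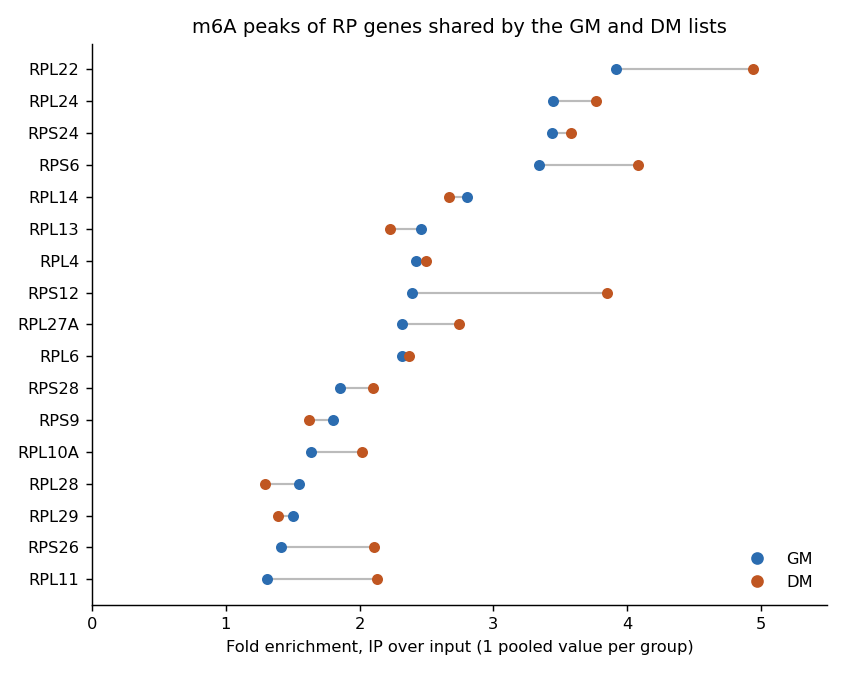
Fold enrichment of IP over input (x axis) in the 17 peaks of ribosomal protein genes that pair 1 to 1 between the GM list (blue) and the DM list (orange), ordered by the GM value. Each point is 1 value of pooled libraries without error. The pair of RPL22 is the highest at 3.92 and 4.94, and RPS12 and RPL11 are the pairs whose values differ over 1.5 times.

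The peaks found in DM alone were mostly weak. RPL15 was the exception, with a peak at chr27:42051425-42051870 that covered the end of its 3′ UTR at a fold enrichment of 7.06, where the GM list had none. Its mRNA was at 287 ± 20.3 FPKM in GM and 223 ± 12.8 FPKM in DM. The 5′ UTR peak of RPS7 had the highest value of all, 10.6, but over 149 bases and with a false discovery rate of 0.014. Those in RPL19, RPL21, RPL26, RPL32, RPL5, RPL7, RPS15A, RPS19 and RPS27L had fold enrichments from 1.16 (RPL32) to 2.04 (RPS19).

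The GM list alone named RPS2, RPS3 and RPS12. The RPS2 peak, at chr25:1521888-1522512 and annotated to the 5′ UTR, had a fold enrichment of 6.10. At the same place the DM list had peaks of 7.99 and 4.69 named for RF01225 on the opposite strand and the GM list had one of 3.81 there. On its own strand RPS2 had no DM peak. RPS3 had a weak peak of 1.53, annotated to its 3′ UTR, with no DM partner, and the RPS12 peak had the partner named above.

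Some of the peaks named for an RNA family entry were short and in 1 block. Whether they lie on the snoRNA itself or on exons of its host was not tested. In RPL7A a peak of 65 bases at chr11:104258594-104258658 had a fold enrichment of 4.36 in GM (false discovery rate 0.19) and 11.7 in DM (0.0078). In RPL23A one of 71 bases had 3.63 (0.1) and 8.52 (0.074). Their false discovery rates were high next to those of the spliced peaks, and they count in the match by position.

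Near-identical copies and genes without a symbol limit what these values mean. The table holds 19 further rows without a symbol that are described as 40S or 60S ribosomal proteins, of which 4 averaged 100 FPKM or more. One described as L12 was at 1043 ± 75.4 FPKM in GM and 789 ± 15.2 FPKM in DM, above RPL12 itself at 628 ± 73.8 and 462 ± 34.0 FPKM. One described as L11-like was at 348 ± 17.0 and 225 ± 6.23 FPKM, close to RPL11. Another, described as L36a, was at 318 ± 34.6 FPKM in GM and 186 ± 17.0 FPKM in DM. Its log2 FC was -0.77 (limma, adjusted p = 0.00031), beyond the -0.67 of RPL27A, and no row under the rule is named RPL36A. How reads were divided between a gene and its copy was not tested, so the levels of RPL11, RPL12 and RPS15A, which also has such a copy, are uncertain.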

How the data were processed

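Poly(A) RNA was fragmented and sequenced as input and after m6A immunoprecipitation, in strand-specific libraries. The deposited expression values are FPKM that the authors made with HISAT2 alignment to ARS-UCD1.2 and StringTie, for the 6 input libraries. The deposited peak lists were called by the authors with exomePeak on the pooled libraries of each group and annotated with ChIPseeker, and their fold enrichment is a linear ratio of IP over input. Their score column holds the deposited p-value, and further deposited columns hold log10 of the p-value and of its false discovery rate. FPKM summed to 386436 to 434458 per library over the table. The paper gives the reads of each library, and the first GM IP library had the fewest. The numbers of peaks were not adjusted here for depth. Read counts per gene were not used, so the reads behind a single value are unknown and no counting interval is given.

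GM and DM, 3 libraries each, were compared with the two-sided moderated test of limma 3.58.1 (R 4.3.3), applied with a variance trend to log2(FPKM + 1) of genes averaging 0.5 FPKM or more. A fold change on this scale understates changes of low genes. Simulated data were used to check the scripts. Peaks were matched and counted with pandas 2.3.3 (Python 3.11.15; numpy 2.4.6), and matplotlib 3.10.9 drew the figures. The members and gene lists were chosen with earlier results of these data known. Genes were named when called at an adjusted p under 0.05 with FC over 1.5, at the 5 largest or smallest changes, the 5 highest or lowest levels, the 5 highest fold enrichments per list, in paralog pairs, in changed peak pairs, in 1 list alone, or when 2 rows shared a name. In the related lists, up to 3 genes per direction called at FC over 1.5 were named. Further genes (RPS28, RPS21, RPS19, RPS26, RPL13A, RPL23, RPS13, RPL7A, RPL23A, RPL12 and those of the related lists with smaller changes) were named after their values were seen. Alternatives covered the pseudocount, filters, scalings, a replicate block, the variance trend, each library left out, and stricter peak sets. Peaks per sample and sequences were not analysed here, and a few genes that meet the naming rule are not reported here.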

Additional observations from a re-analysis of the deposited data

How the results depend on the processing

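The count of 61 ribosomal protein genes lower in DM stayed within 53 (TPM) to 62 (replicate block) over the pseudocounts, filters, scalings, trend and block, and ran from 55 to 65 when each library was left out, with none higher in any of them. Over all genes tested, the share lower ran from 16.6% (TPM) to 31.0% (mean FPKM at least 5) in these settings. The share higher ran from 11.1% (no filter on FPKM) to 24.3% (TPM). The count with FC over 1.5 was less stable. From 9 it went to 0 on TPM, to 2 with median-of-ratios size factors, to 5 relative to the median of all genes (chosen after seeing the data), to 3 to 17 when each library was left out, and to 57 at an adjusted p under 0.05 with FC over 1.2. The median log2 FC of -0.43 moved to -0.31 on TPM, and ran from -0.49 to -0.36 over left-out libraries. Of the named genes' values under alternatives, 401 kept direction and side of the threshold, 9 lost the call and 5 gained it. Genes with a peak went from 21 to 13 in GM and from 30 to 17 in DM at a fold enrichment of at least 2, by construction of the stricter set. Shared peaks higher in DM over 1.5 times went from 2 to 1 with overlap of at least 50% of both peaks, where 11 of the 17 pairs were left, and to 0 at a change over 2 times.

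Replicate numbers are shared by the groups in the labels. Same-numbered libraries did not deviate together (Pearson r of deviations from the group means across genes -0.079, -0.123 and -0.208). No library correlated best with its own number. With 3 libraries per group, these values cannot exclude that same-numbered libraries share a culture or preparation. With the replicate block, 62 genes were lower and 9 passed FC over 1.5. The FPKM give no depth, and without replicate error of a peak, differences in fold enrichment cannot be set against spread.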
